A study of Mus musculus with 106 samples.

Results

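Liver gene expression was compared between PWK/PhJ males kept on a high-fat diet (HFD) and PWK/PhJ males kept on a chow diet (CD). The members are the samples labelled with this strain, the male sex and either diet: 3 mice on HFD and 3 on CD, that is 6 of the 52 males in a series that also holds 54 females, and all 14330 genes of the count table were tested. The diets began at 8 weeks of age and ended with liver collection at 21 weeks. Fat made up 60% of the calories in HFD and 6% in CD, carbohydrate 20% and 74%, and protein 20% in both. The series covers both sexes of 9 inbred strains, none of which carries an engineered allele in the labels, with 1 liver mRNA library per mouse and 3 mice in each group except for 1 male of NZO/HlLtJ on HFD. The females of PWK/PhJ (3 on HFD, 3 on CD) and the males of the other 8 strains (46 mice) served for comparison. Each title carries an animal label of its own. The 3 HFD mice have animal numbers from one range and the 3 CD mice from another, so that diet and animal-number range cannot be told apart in this pair of groups. Bulk RNA from a piece of liver was measured, in which fewer cells of a type and less RNA per cell cannot be told apart.

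PWK/PhJ is an inbred strain derived from wild mice of the subspecies Mus musculus musculus, and its genome differs from the reference strain at far more positions than that of a classical laboratory strain. Liver is where dietary fat is oxidised, stored in droplets or exported in lipoproteins, and where cholesterol and bile acids are made. Many of its genes, above all cytochrome P450 and sulfotransferase genes, are expressed at different levels in the sexes, which is set largely by the sex-dependent pattern of growth hormone release and the transcription factor STAT5. Acute phase genes encode plasma proteins that hepatocytes secrete in larger amounts during inflammation.

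The 6 libraries held between 48600878 and 55247134 gene counts, within the range of 35534924 to 73577221 over the whole series. Between 20.6% and 23.9% of their reads were not uniquely aligned, and the ranges of the diets overlapped. Pearson correlations of log2(CPM + 1) across genes ran from 0.985 to 0.992 for the 6 pairs of mice on the same diet and from 0.983 to 0.991 for the 9 pairs on different diets (CPM: counts scaled with TMM factors to a common library size). No pair agreed within sampling noise. The hepatocyte markers were high in every mouse, with albumin (Alb) between 66258 and 87754 CPM. Xist lay between 0.758 and 1.25 CPM and the Y-linked Ddx3y between 51.4 and 74.1 CPM, whereas the females of the strain had at least 202 CPM and at most 0.0519 CPM. All 6 mice thus matched their labelled sex.

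With edgeR's quasi-likelihood test and a Benjamini-Hochberg adjusted p under 0.05, 92 of 14330 genes (0.642%) were called: 34 (0.237%) were higher on HFD and 58 (0.405%) were lower. The median log2 fold change of the called genes was 1.19 in absolute size, and the signed median over all genes was -0.00138. A change of at least 1 on the log2 scale was found for 53 called genes, 18 of them higher and 35 lower. The values of the 3 HFD mice and the 3 CD mice did not overlap for 85 of the 92, against 1824 of all genes (12.7%), and 1203 genes (8.39%) had an unadjusted p under 0.05, 548 of them higher (3.82%) and 655 lower (4.57%). The deepest falls were those of Cyp3a41a and its neighbours, Sult3a1, Orm1 and Moxd1, and the clearest rise was that of Gsn. DESeq2 called 120 genes, 89 of them among the 92, and limma called 92, with 74 shared. The count was 42 without the mouse HFD 1, 54 without CD 2 and 59 without CD 3, and 19 genes, 5 higher and 14 lower, passed in every fit that left out 1 of the 6 mice. With the 6 libraries fitted alone, which leaves 4 residual degrees of freedom, 4 genes passed, among them Orm1, Ugt1a1 and Nat8.

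**Figure D1:**
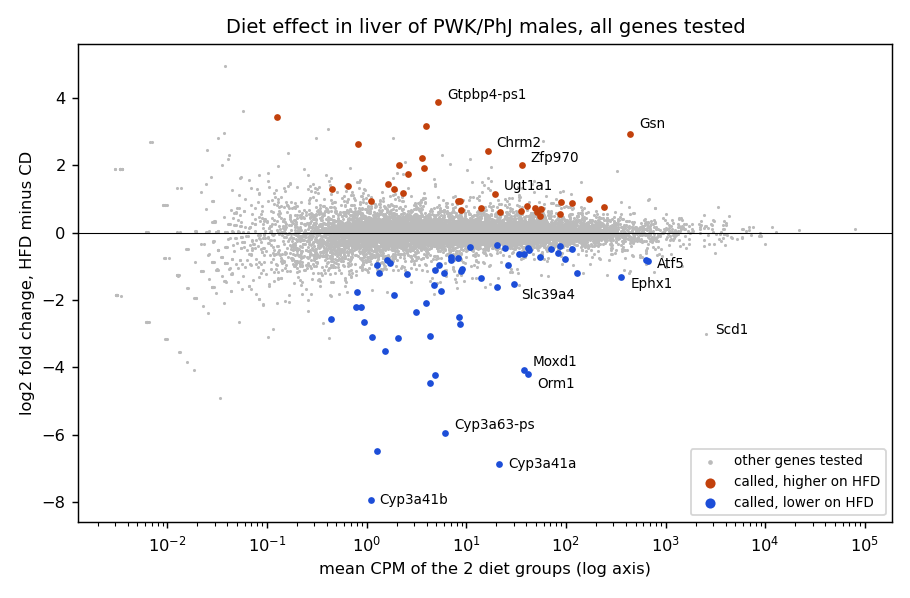
Log2 fold change (HFD minus CD, 3 PWK/PhJ males each) against the mean CPM of the diet groups on a log axis, 1 point per gene. The 34 genes called higher and the 58 called lower are coloured; Cyp3a41b lies lowest and Gsn stands apart at high expression, while Scd1 was not called.

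The largest falls were in female-biased genes of the Cyp3a cluster, which encode cytochrome P450 enzymes that hydroxylate steroids and drugs. Cyp3a41a (ENSMUSG00000075551, chromosome 5, 145694049 to 145720136, GRCm38) was at 56.7, 66.7 and 5.03 CPM in the mice CD 1 to 3 and at 0.161, 0.253 and 0.653 CPM in HFD 1 to 3. The groups did not overlap, but CD 3 lay far below the other chow mice. Its log2 fold change was -6.87 ± 0.99 (SE, n = 3 per group; edgeR adjusted p 5.57e-06). In the females of the strain it lay between 546 and 1172 CPM on either diet, so that even the highest chow male was below every female.

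All 5 genes tested between 145558664 and 145805874 on chromosome 5 were called lower: Cyp3a41b, the pseudogenes Selenok-ps7 and Cyp3a63-ps, Cyp3a41a and Cyp3a44. Cyp3a44 was at 10.8, 15.8 and 1.07 CPM on CD and at 0.403, 0.463 and 0.616 CPM on HFD, a log2 fold change of -4.21 ± 0.90 (SE, adjusted p 0.00432). Cyp3a63-ps was at 11.2, 22.3 and 2.62 CPM on CD and at 0.161, 0.0421 and 0.363 CPM on HFD (log2 fold change -5.93 ± 0.85, adjusted p 5.57e-06). The order of the chow mice, with CD 2 highest and CD 3 lowest, was the same in these genes. No HFD library exceeded 3 counts of Cyp3a41b or Selenok-ps7, so their fitted changes depend on the prior count. Against a floor of 3 counts per library, their chow means were at least 37.0-fold and at least 42.4-fold higher. The call of Cyp3a41b was lost without CD 2 (adjusted p 0.0570), and that of Cyp3a44 in 2 of 6 such fits (up to 0.0676, without HFD 1) and with limma (0.151). The Cyp3a genes among them are near copies of each other, so reads could be set aside as not uniquely aligned or assigned to another copy. Their single values are uncertain. Selenok-ps7 is annotated as a processed pseudogene and is not a Cyp3a gene. Cyp3a members with high male expression were not called: Cyp3a11 averaged 4285 CPM on HFD and 3409 CPM on CD (adjusted p 0.935), and Cyp3a25 1239 and 1226 CPM (log2 fold change 0.02).

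The windows around the starts of these genes are shown because the genes fell together. Each runs from 250 bases before to 50 bases after the start, 5′ to 3′ on the minus strand, from RefSeq on GRCm38.p6. The bases are those of the reference strain, and those of PWK/PhJ were not read and may differ. Capitals mark bases that differ from, or are not present in, the Cyp3a41a window in a pairwise alignment. The windows lie at chr5:145720087-145720386 (Cyp3a41a), chr5:145584681-145584980 (Cyp3a41b), chr5:145805825-145806124 (Cyp3a44) and chr5:145879805-145880104 (Cyp3a11, which was not called).
Cyp3a41a: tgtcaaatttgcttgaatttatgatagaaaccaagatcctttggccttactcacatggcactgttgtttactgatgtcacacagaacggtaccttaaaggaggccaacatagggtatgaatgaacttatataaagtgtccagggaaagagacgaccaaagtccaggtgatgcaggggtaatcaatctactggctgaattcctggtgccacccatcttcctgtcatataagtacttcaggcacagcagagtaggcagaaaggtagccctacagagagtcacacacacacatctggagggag
Cyp3a41b: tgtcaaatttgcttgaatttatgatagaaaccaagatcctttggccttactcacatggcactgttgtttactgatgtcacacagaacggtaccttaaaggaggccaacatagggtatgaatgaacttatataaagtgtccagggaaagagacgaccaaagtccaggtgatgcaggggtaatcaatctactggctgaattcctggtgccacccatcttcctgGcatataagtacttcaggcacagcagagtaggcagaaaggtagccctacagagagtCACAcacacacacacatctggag
Cyp3a44: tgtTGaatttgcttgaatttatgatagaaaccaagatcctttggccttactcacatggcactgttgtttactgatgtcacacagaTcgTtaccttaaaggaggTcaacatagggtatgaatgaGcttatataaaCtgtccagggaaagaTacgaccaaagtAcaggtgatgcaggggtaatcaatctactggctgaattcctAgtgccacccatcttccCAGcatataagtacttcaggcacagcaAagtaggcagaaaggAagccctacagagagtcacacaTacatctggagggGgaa
Cyp3a11: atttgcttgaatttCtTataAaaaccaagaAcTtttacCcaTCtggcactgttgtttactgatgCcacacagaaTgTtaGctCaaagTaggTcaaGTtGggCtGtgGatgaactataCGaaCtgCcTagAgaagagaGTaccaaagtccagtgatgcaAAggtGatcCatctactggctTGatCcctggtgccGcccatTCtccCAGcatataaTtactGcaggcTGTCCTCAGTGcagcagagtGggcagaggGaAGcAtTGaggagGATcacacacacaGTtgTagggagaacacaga

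The Cyp3a41b window was 98.3% identical to that of Cyp3a41a, with 1 substitution and 4 further bases. Cyp3a44 was 93.7% identical with 17 substitutions, and Cyp3a11 73.7% identical with 58. The letters TTCNNNGAA, to which STAT proteins can bind, were searched on both strands and were not found in the reference windows of Cyp3a41a, Cyp3a41b and Cyp3a44. Whether PWK/PhJ holds these letters there was not tested. They were found in 4 of the 48 called lower genes with a window (8.33%), among them Sult3a1 and Moxd1, in 3 of 24 called higher (12.5%) and in 890 of 10584 genes tested (8.41%). Of the 92 called genes 72 had a window.

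Sult3a1 (ENSMUSG00000069668, chromosome 10, 33857721 to 33879532), a sulfotransferase gene expressed mainly in female liver, followed the same order of mice. It was at 6.41, 17.8 and 0.700 CPM on CD and at 0.302, 0.463 and 0.363 CPM on HFD, against at least 827 CPM in each female. The log2 fold change was -4.46 ± 0.91 (SE, adjusted p 0.00280). Without CD 2 the adjusted p was 0.101, and limma gave 0.139. It overlaps Gm47935 on the opposite strand. Of 27 female-biased genes listed, 4 were called, all lower (Cyp3a41a, Cyp3a41b, Cyp3a44 and Sult3a1), and the median log2 fold change was 0.03 (0.405% of all genes were called lower). Limma called 2 of them. At an unadjusted p under 0.05 the list had 2 genes higher and 5 lower, and 14 of the 27 were fitted above 0. Cyp17a1, a steroid hydroxylase, was at 17.8, 20.4 and 13.1 CPM on HFD against 7.11, 8.74 and 9.45 CPM on CD and was not called (log2 fold change 1.02, adjusted p 0.430). The highest fitted change of the list, 4.95 for Cyp2b13, rests on at most 0.121 CPM on HFD and 0 counts on CD and depends on the prior count (adjusted p 0.750). Cyp2b13 was named after its values were seen.

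Among 27 male-biased genes 1 was called, lower (0.405% of all genes were called lower), and the median was -0.41. This was Moxd1 (ENSMUSG00000020000, chromosome 10, 24223517 to 24302790), which encodes a monooxygenase related to dopamine beta-hydroxylase. It was at 49.3, 13.5 and 152 CPM on CD and at 4.27, 8.04 and 0.508 CPM on HFD. The spread within each diet was wide, and the nearest mice, CD 2 and HFD 2, differed by less than the chow mice did among themselves. The log2 fold change was -4.08 ± 0.69 (SE, adjusted p 0.000135), and it passed in all 6 fits that left out a mouse (highest adjusted p 0.0193). Females had at most 0.156 CPM. Others of the list did not pass: Serpina12 was at 67.2, 132 and 73.9 CPM on HFD against 212, 128 and 285 CPM on CD (adjusted p 0.443), and Ugt2b1 at 416, 527 and 377 CPM against 864, 576 and 738 CPM (0.209). Hsd3b5 (log2 fold change 0.29) and Cyp7b1 (-0.64) were not called either. On the Y chromosome Uba1y, a copy of the ubiquitin-activating enzyme gene, fell (log2 fold change -3.50 ± 0.73, adjusted p 0.00581). DESeq2 gave 0.0574 for it and the fit without CD 2 0.157.

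**Figure D2:**
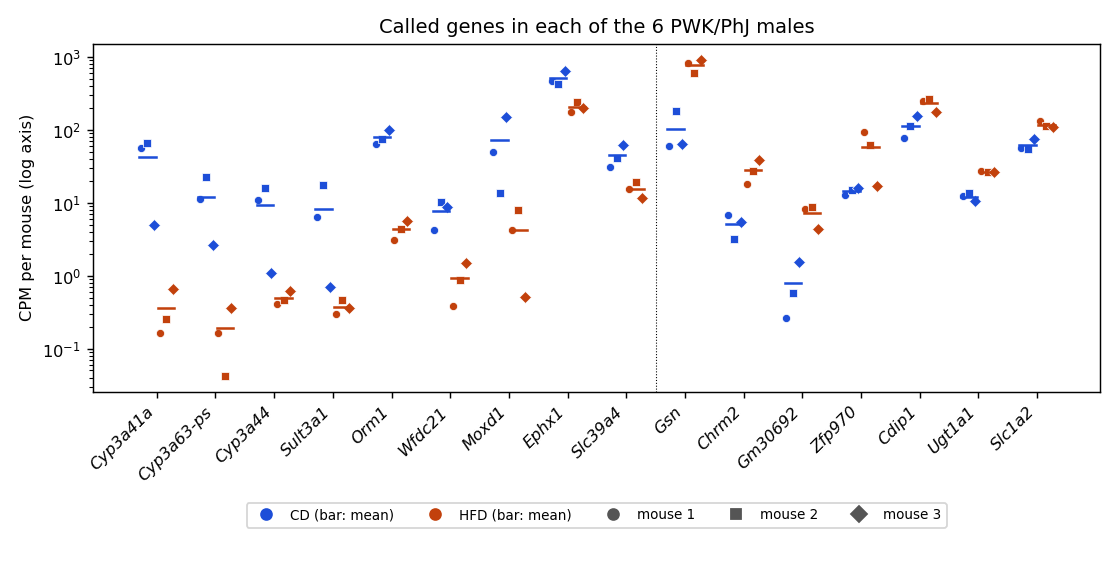
CPM per mouse on a log axis for 16 called genes, with a symbol for each mouse and a bar at the mean of each diet group (n = 3). Left of the dotted line are genes lower on HFD, in which CD 3 lies nearest to the HFD mice for the Cyp3a genes and Sult3a1; right of it are genes higher on HFD, in which HFD 3 lies nearest to the chow mice for Zfp970 and Cdip1.

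Orm1 (ENSMUSG00000039196, chromosome 4, 63344560 to 63348163) encodes the plasma protein alpha-1-acid glycoprotein. It was at 64.2, 73.9 and 99.9 CPM on CD and at 3.08, 4.42 and 5.55 CPM on HFD, with little spread in either group. The log2 fold change was -4.19 ± 0.62 (SE, adjusted p 1.11e-05), the gene passed without any 1 of the 6 mice, and it also passed in the 6 libraries alone (0.000920). Its paralogs were lower without overlap but did not pass: Orm2 was at 2.76, 2.06 and 3.79 CPM on HFD against 6.00, 7.27 and 10.8 CPM on CD, and Orm3 at 3.80, 4.36 and 7.22 CPM against 10.7, 13.8 and 17.4 CPM (adjusted p 0.778 and 0.435). The paralogs are similar in sequence. Reads not uniquely aligned and reads ambiguous between genes stood in separate lines of the count table. Reads that fit more than 1 paralog may therefore be missing from these values. Wfdc21, a small secreted protein with a WAP domain, fell from 4.21, 10.4 and 8.67 CPM to 0.382, 0.884 and 1.49 CPM (log2 fold change -3.06 ± 0.59, adjusted p 0.00129). Of 25 acute phase genes Orm1 was the one called (0.642% of all genes were called), and the median was 0.30, with 19 members fitted above 0. Saa4 was at 1035, 948 and 784 CPM on HFD against 325, 427 and 622 CPM on CD (adjusted p 0.404). Saa1 was at 82.0, 78.4 and 463 CPM against 26.6, 67.8 and 128 CPM (0.875), and Hamp at 108, 98.8 and 175 CPM against 61.2, 105 and 54.2 CPM (0.816).

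Genes of drug and steroid metabolism changed in both directions. Of 39 listed, 2 were called higher and 3 lower, with a median of 0.18 (0.642% of all genes were called). Of the 39, 17 had groups that did not overlap, against 12.7% of all genes. Ephx1, the microsomal epoxide hydrolase (chromosome 1, 180976210 to 181020904), was at 465, 425 and 649 CPM on CD and at 174, 240 and 202 CPM on HFD. Its log2 fold change was -1.32 ± 0.25 (SE, adjusted p 0.00101), and it passed without any 1 mouse. Ugt1a1, the enzyme that glucuronidates bilirubin (chromosome 1, 88211959 to 88218997), was at 12.3, 13.5 and 10.5 CPM on CD and at 27.2, 26.5 and 26.6 CPM on HFD. The 3 HFD mice were nearly equal, and its log2 fold change was 1.14 ± 0.19 (SE, adjusted p 0.000110). It shares exons with the other Ugt1a genes, so its reads are uncertain. Cyp2c38 was called higher (log2 fold change 2.21, adjusted p 0.0261) on the strength of HFD 3, at 12.7 CPM, while HFD 2 at 1.37 CPM lay below CD 2 at 2.05 CPM. Without HFD 3 its adjusted p was 0.638, and limma gave 0.111. Cyp2c37 was at 52.4, 52.4 and 49.8 CPM on HFD and at 21.0, 23.8 and 17.0 CPM on CD, which edgeR did not call (0.0855) and DESeq2 did (0.0399). Cyp2b10 was at most 0.535 CPM in each mouse.

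**Figure D3:**
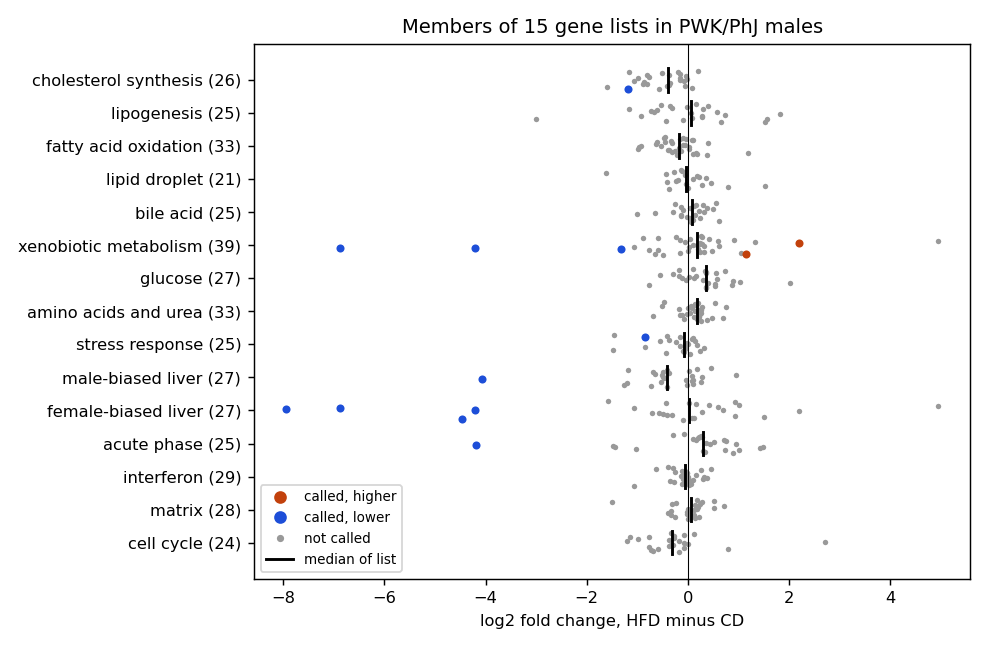
Log2 fold changes (HFD minus CD) of the members of 15 gene lists in PWK/PhJ males, 1 point per gene, with the number of members measured in brackets and a black bar at the median of the points drawn. Genes with at most 3 counts in each of the 6 libraries are not drawn; called members are coloured, 5 of them in the xenobiotic list and 4 in the female-biased list.

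Cholesterol synthesis genes lay below 0. Of 26 measured, 24 had a fitted change below 0, the median was -0.39 against -0.00138 over all genes, and 11 had groups that did not overlap (12.7% of all genes). Tm7sf2, a sterol C14 reductase, was the 1 member that passed edgeR's test, against 0.405% of all genes called lower. At an unadjusted p under 0.05 the list had 0 genes higher and 7 lower. Tm7sf2 was at 159, 195 and 190 CPM on CD and at 92.1, 74.4 and 72.7 CPM on HFD, a log2 fold change of -1.19 ± 0.27 (SE, adjusted p 0.00855), and it lost its call without 1 mouse in 3 of 6 fits (up to 0.0729, without HFD 2). It overlaps Vps51 on the same strand. Squalene epoxidase (Sqle) was at 10.7, 5.14 and 6.94 CPM on HFD against 26.3, 24.8 and 18.4 CPM on CD (adjusted p 0.144). Cyp51 (log2 fold change -1.17, adjusted p 0.145) and Nsdhl (-0.89, 0.306) also had separate groups without a call. Outside the list, Tmem97, a sterol-responsive membrane protein, fell (log2 fold change -0.73 ± 0.17, adjusted p 0.0132), and its call was lost in 4 of 6 fits without 1 mouse (up to 0.149, without CD 3).

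No lipogenesis gene of 25 was called by edgeR (3 higher and 6 lower at an unadjusted p under 0.05, median 0.06), whereas DESeq2 called 3 lower and limma 2. Scd1, the desaturase that makes monounsaturated fatty acids, was at 4709, 5029 and 3944 CPM on CD and at 982, 170 and 560 CPM on HFD. The groups were far apart, with a log2 fold change of -3.00 ± 0.84 (SE). The adjusted p was 0.0716 with edgeR, 0.0141 with DESeq2 and 0.0182 with limma. Malic enzyme (Me1) was at 59.2, 59.9 and 69.2 CPM on HFD against 132, 110 and 116 CPM on CD, with adjusted p of 0.0535, 0.0274 and 0.0474 in the same order. Elovl5, an elongase of polyunsaturated fatty acids, was at 381, 477 and 558 CPM against 956, 1254 and 974 CPM (0.0859, 0.0413 and 0.111). Other genes of the pathway had other values. Srebf1 was at 84.1, 36.9 and 137 CPM on HFD and 67.2, 56.0 and 41.1 CPM on CD (log2 fold change 0.65), and the log2 fold changes were 0.58 for Fasn, -0.61 for Elovl6 and 1.56 for Pnpla3. Pnpla3 was at 0.865, 0.484 and 2.54 CPM on HFD and 0.350 to 0.527 CPM on CD. Its change was as low as 0.61 in fits without 1 mouse, and the edgeR adjusted p was 0.775 without HFD 3. With all mice none of these genes was called (edgeR adjusted p from 0.0887 to 0.744).

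Fatty acid oxidation genes, most of them targets of the fatty acid receptor PPARalpha, had a median of -0.17, and 0 of 33 were called (edgeR; 0 higher and 6 lower at an unadjusted p under 0.05; 0 with DESeq2 and limma). Cpt1a, which admits fatty acids to mitochondria, was at 556, 721 and 742 CPM on HFD against 1060, 1087 and 989 CPM on CD (adjusted p 0.172). Ehhadh had a log2 fold change of -0.99, Cyp4a31 of -0.96 and Cyp4a14 of -0.54. Pdk4 was at 44.5 CPM in HFD 2 and between 6.24 and 10.5 CPM in the other 5 mice. Of 21 lipid droplet genes 0 were called by any of the 3 tools (2 higher and 1 lower at an unadjusted p under 0.05, median -0.06). Plin2, the main droplet coat protein of hepatocytes, overlapped between the diets (424, 1329 and 884 CPM against 1091, 828 and 775 CPM). Cidec was at 3.56, 22.0 and 6.07 CPM against 18.8, 21.6 and 56.2 CPM (adjusted p 0.387), Plin4 at 40.1, 31.9 and 7.94 CPM against 5.25, 10.0 and 12.5 CPM (0.341), and Cidea at no more than 0.0206 CPM in any mouse. Cd36, Pparg and Mogat1 had log2 fold changes of -0.11, -0.36 and 0.45, with adjusted p of at least 0.926. Fgf21 was at 7.31 to 46.2 CPM on HFD and 21.4 to 49.5 CPM on CD.

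Lipoprotein genes had no call among 23 (0 higher and 2 lower at an unadjusted p under 0.05; DESeq2 and limma 0; median 0.04), with Apoa4 at 213, 302 and 314 CPM on HFD against 358, 531 and 947 CPM on CD (edgeR adjusted p 0.372). Bile acid genes had none among 25 (3 and 1; DESeq2 and limma 0; median 0.09). Cyp8b1, which sets the share of cholic acid, was at 615, 879 and 501 CPM against 1334, 1234 and 1454 CPM (adjusted p 0.137). Cyp7a1, the rate-limiting enzyme of bile acid synthesis, ran from 1.92 to 54.6 CPM among the HFD mice alone. Glucose metabolism had a median of 0.36, the highest of the 22 pathway lists, with 20 of 27 members above 0 and no call by edgeR or limma (6 higher and 1 lower at an unadjusted p under 0.05; 1 higher with DESeq2). That one was Ppargc1a, a coactivator of gluconeogenic and mitochondrial genes, at 17.0, 11.1 and 5.20 CPM on HFD against 2.38, 3.31 and 2.47 CPM on CD (edgeR adjusted p 0.111, DESeq2 0.0446). Pygl (log2 fold change 0.54), Igf1 (-0.54) and Pck1 (-0.04) were not called. In the 33 genes of amino acid metabolism and the urea cycle the median was 0.18, with 0 called by any of the 3 tools (4 and 1 at an unadjusted p under 0.05). Cps1, the first enzyme of the urea cycle, was at 5286, 3808 and 3601 CPM against 2386, 2845 and 2235 CPM (adjusted p 0.198).

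In each of the next 3 lists 1 gene passed (0.237% of all genes were called higher and 0.405% lower). Of 25 stress response genes Atf5, a transcription factor of the mitochondrial stress response, was called lower (802, 763 and 981 CPM on CD, 459, 533 and 431 CPM on HFD; log2 fold change -0.84 ± 0.21, adjusted p 0.0364; list median -0.07). It lost its call in each of the 6 fits without 1 mouse, up to 0.266 without CD 3, and overlaps Nup62 and Il4i1 on the opposite strand. Asns, Psat1 and Mthfd2 are genes of amino acid synthesis or folate metabolism that the same pathway drives. Their log2 fold changes were -1.47, -1.48 and -0.84 and did not pass (0.180 to 0.281). Of 18 iron and heme genes Hfe, which takes part in sensing of iron, was called lower (log2 fold change -0.52, adjusted p 0.0165; 0.206 without CD 3; median -0.07). Of 18 pericentral genes Slc1a2, a glutamate transporter, was called higher, at 108 to 132 CPM on HFD against 54.8 to 74.5 CPM on CD (log2 fold change 0.92 ± 0.20, adjusted p 0.00604; up to 0.0917 without HFD 1; median 0.01). No gene was called by edgeR among 15 periportal (median 0.12), 21 antioxidant (-0.03), 20 circadian (0.11), 29 interferon (-0.05), 28 matrix (0.07), 34 oxidative phosphorylation (0.01) and 24 cell cycle genes (-0.30). At an unadjusted p under 0.05 these 7 lists had 3, 2, 0, 1, 2, 0 and 2 genes, and DESeq2 called 1 cell cycle gene and limma none. In all, 13 of the 92 called genes belonged to a pathway list, from which 536 genes were measured, against 0.642% of all genes called.

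Beyond these, the panel of 30 genes of lipid metabolism, inflammation and fibrosis had 0 calls with edgeR (1 higher and 6 lower at an unadjusted p under 0.05) and 1 lower, Scd1, with DESeq2 and with limma. Its median was -0.13. Col1a1, the chain of type I collagen, was at 1.77, 2.34 and 3.88 CPM on HFD against 8.22, 7.64 and 6.84 CPM on CD (log2 fold change -1.50, adjusted p 0.111). Adgre1, the macrophage gene behind F4/80, lay between 7.51 and 10.5 CPM in all 6 mice.

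The smallest adjusted p was that of Gsn (ENSMUSG00000026879, chromosome 2, 35256380 to 35307892), which encodes the actin-severing protein gelsolin. It was at 837, 596 and 914 CPM on HFD and at 60.5, 183 and 63.1 CPM on CD. The lowest HFD mouse was above the highest chow mouse, and the log2 fold change was 2.93 ± 0.27 (SE, adjusted p 4.01e-13). It passed without any 1 mouse, with an adjusted p of at most 3.16e-09. In the 6 libraries alone the adjusted p was 0.0704. Chrm2, the muscarinic acetylcholine receptor M2, was at 17.8, 27.2 and 38.1 CPM against 6.89, 3.18 and 5.38 CPM (log2 fold change 2.43 ± 0.41, adjusted p 0.000110). It overlaps 9330158H04Rik on the opposite strand. Gm30692 and the antisense gene Gm26714, 2 noncoding neighbours on chromosome 8, rose by 3.17 and 1.99 on the log2 scale (adjusted p 0.00182 and 0.0375). Gm30692 passed without any 1 mouse, whereas Gm26714 lost its call in 4 of 6 such fits (up to 0.408, without HFD 1) and with limma (0.0930). The protein-coding Tcim, which Gm26714 overlaps on the opposite strand, was at 159, 98.5 and 58.4 CPM against 22.4, 60.7 and 75.5 CPM and was not called (adjusted p 0.451).

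Other genes were called higher. Amt, a subunit of the glycine cleavage system, rose from 82.5, 78.9 and 81.5 CPM to 164, 119 and 160 CPM (log2 fold change 0.87 ± 0.23, adjusted p 0.0433). It lost its call in 5 of 6 fits without 1 mouse, up to 0.283 without HFD 1, and with limma (0.0757). Slc5a1, a sodium-glucose cotransporter, was at 2.58, 2.53 and 3.01 CPM on HFD against 0.960, 1.56 and 0.762 CPM on CD (log2 fold change 1.30 ± 0.26, adjusted p 0.00272; 0.0759 without CD 3). Igf2bp2, an RNA-binding protein, rose by 1.16 (0.0356) and lost its call in 4 of 6 fits without 1 mouse (up to 0.428, without CD 3). The pseudogene Gtpbp4-ps1 had the highest fitted change among the called genes, 3.86 ± 0.87 (adjusted p 0.00855), yet HFD 3 at 0.453 CPM lay below CD 3 at 1.54 CPM, while HFD 1 and HFD 2 were at 13.3 and 15.5 CPM. Its call was lost in 4 of 6 fits without 1 mouse (up to 0.109, without CD 1) and with limma (0.154).

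Further genes fell by less. The zinc importer Slc39a4 fell from 31.4, 41.5 and 61.7 CPM to 15.2, 19.4 and 11.7 CPM (log2 fold change -1.54 ± 0.23, adjusted p 1.29e-05). Pfkfb4, which sets the level of fructose 2,6-bisphosphate, fell from 8.76, 4.63 and 5.87 CPM to 1.05, 1.56 and 1.96 CPM (-2.07 ± 0.35, 0.000135). Both passed without any 1 mouse. H2-Q10, a class I histocompatibility molecule secreted by liver, was at 693, 843 and 929 CPM on CD and 495, 417 and 478 CPM on HFD (-0.83 ± 0.18, 0.00581; 0.0762 without CD 3). Reads of H2-Q10 may also fit other class I genes. Named after their values were seen, Cd47 (-0.49), Prpsap1 (-0.61), Pir (-1.12), Sdk1 (-3.14) and Nsun7 (-2.57) also passed without any 1 mouse, and Selenow, a selenoprotein (-1.34), lost its call without CD 3 (0.142), which held 36.1 CPM against 12.0 to 12.2 CPM in the other chow mice.

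Called genes were also read by position, a description chosen after the values were seen: neighbouring called genes of like direction whose starts lay within 0.5 Mb. There were 5 such runs of at least 2 genes. On chromosome 16 between 4626133 and 4790292, 5 of 6 genes tested were called higher: the coronin Coro7, the mitochondrial chaperone Dnaja3, the redox sensor Nmral1, the heme oxygenase Hmox2 and the apoptosis gene Cdip1. Cdip1 was at 250, 264 and 176 CPM on HFD and at 77.4, 111 and 154 CPM on CD (log2 fold change 1.01 ± 0.20, adjusted p 0.00188). Dnaja3 was at 342, 361 and 210 CPM against 158, 152 and 225 CPM, so that HFD 3 lay below CD 3 (0.77 ± 0.14, 0.000465). Without 1 mouse at a time the call was lost in 5 of 6 fits for Coro7 (up to 0.320, without HFD 1), 4 for Nmral1 (0.210, without CD 1), 2 for Hmox2 (0.0968, without HFD 2), 1 for Cdip1 (0.0690, without CD 1) and none for Dnaja3. Coro7 and Dnaja3 overlap on opposite strands, as do Hmox2 and Cdip1, and the strand used in counting is not given in the sources used here. Reads ambiguous between genes stood in a separate line, so reads of the overlaps could be missing or counted for the other gene of a pair. Vasn, the sixth gene, overlaps Coro7 and Dnaja3 and was not called (0.938).

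On chromosome 2 between 177000956 and 177957297, 4 of 12 genes tested, most of them zinc-finger genes, were called higher, and 11 of the 12 had a fitted change above 0. Zfp970 was at 94.3, 61.6 and 17.2 CPM on HFD and at 12.7, 14.9 and 15.7 CPM on CD (log2 fold change 2.00 ± 0.44, adjusted p 0.00615). HFD 1 and HFD 2 stood apart and HFD 3 was close to the chow mice, a pattern shared by Gm14326 and Gm14403. The call of Zfp970 was lost in 3 of 6 fits without 1 mouse, up to 0.288 without HFD 1, and with limma (0.0701). Gm14419 was at 3.00, 2.88 and 1.34 CPM against 0.997, 0.866 and 0.762 CPM (1.45 ± 0.37, 0.0335), and its call was lost in 5 of 6 such fits (up to 0.288, without HFD 1) and with limma (0.238). Gm14326 lost it in 3 (up to 0.496, without HFD 1), and so did Zfp972 (0.194, without HFD 1). Zfp972 had at most 2 counts per chow library, and its HFD mean was at least 4.03-fold higher than the floor of 3 counts. Members of this cluster are near copies, so reads could be set aside as not uniquely aligned or assigned to another copy. The other runs were the Cyp3a genes above, Nat8 and Nat8f5 on chromosome 6 (both lower, log2 fold changes -1.61 and -1.74) and Gm30692 with Gm26714. Nat8 and Nat8f5 lost their calls in each of the 6 fits without 1 mouse (up to 0.198 without HFD 1 and 0.375 without CD 3) and with limma (0.156 and 0.231). Chromosome 16 held 12 called genes of 443 tested (2.71%), chromosome 5 held 14 of 952 (1.47%) and chromosome 2 held 10 of 1093 (0.915%), against 0.642% of all genes. Chromosome 6 stood at 0.820% and the Y chromosome, with 1 of 8 genes, at 12.5%, and the share was lower on each of the other chromosomes than on chromosome 6.

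**Figure D4:**
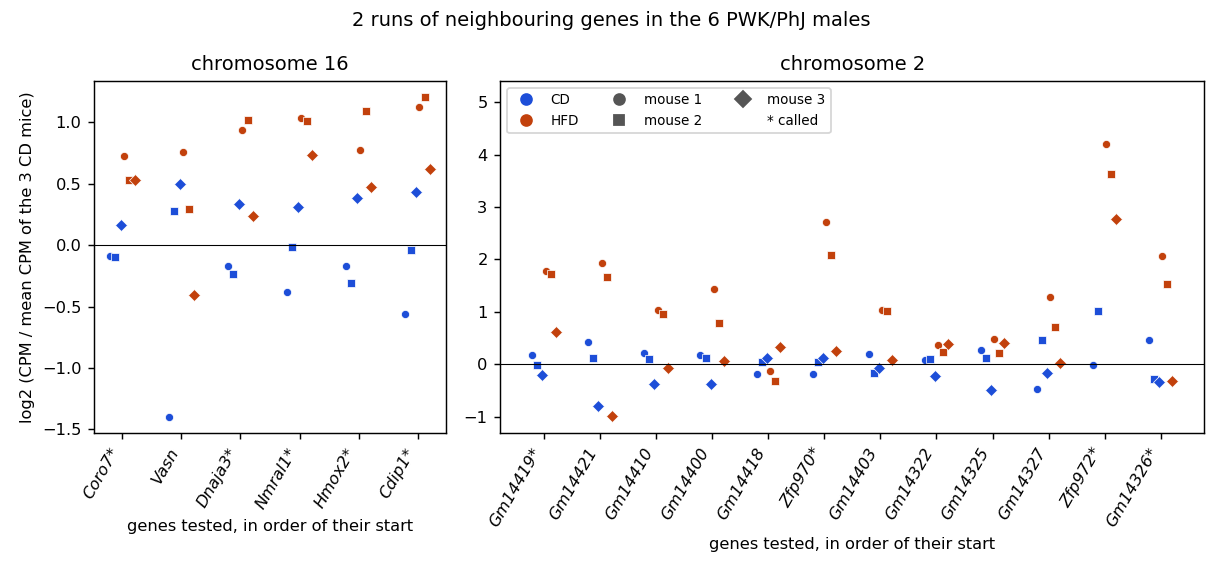
Log2 ratio of each mouse's CPM to the mean CPM of the 3 chow mice for the genes tested in the runs on chromosomes 16 and 2, in order of their start, with asterisks for called genes. HFD 1 and HFD 2 lie above the chow mice in most genes of both runs, and HFD 3 lies nearer to them; the chow mouse CD 3 had 0 counts of Zfp972 and is not drawn there.

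The same diet effect was read in the females of the strain. In them edgeR called 2392 of 14330 genes (16.7%), 1308 higher on HFD (9.13%) and 1084 lower (7.56%). Of the 92 genes called in males 31 were also called in females (33.7% of the male and 1.30% of the female list), 25 in the same and 6 in the opposite direction. The difference between the sexes (male effect minus female effect) was tested in the same fit. It passed for 623 of 14330 genes (4.35%), above 0 for 214 (1.49%) and below 0 for 409 (2.85%), and 2553 had an unadjusted p under 0.05. The count was 208 without the female CD 2, 268 without the male HFD 2, 321 without the female HFD 1 and 407 without the male HFD 1. For 403 of the 623 the female value was fitted above 0, and 525 were called in females. Among the 92 genes called in males 34 passed, in a contrast that shares all 6 male libraries.

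Orm1 and Wfdc21 moved in opposite directions in the sexes. In females Orm1 was at 33.5, 35.4 and 253 CPM on HFD, from lowest to highest, and between 12.6 and 27.3 CPM on CD (log2 fold change 2.41). Much of this rise rests on the highest HFD female. The male minus female difference was -6.60 ± 0.84 (SE, adjusted p 1.21e-07), and its size depends in part on that mouse. Wfdc21 was between 9.34 and 14.1 CPM on HFD and between 0.494 and 1.17 CPM on CD in females (3.96), with a difference of -7.02 ± 0.85 (2.51e-08). For Cyp3a41a the female change was -0.53 and the difference -6.34 ± 1.18 (0.000384), for Sult3a1 -0.09 and -4.37 ± 1.15 (0.0156). Ugt1a1 changed by -0.41 in females, which had 24.6 to 43.7 CPM, and the difference was 1.55 ± 0.27 (0.000116). Gsn rose in both sexes: females had 859 to 1353 CPM on HFD and 224 to 399 CPM on CD (1.92, adjusted p 8.79e-08), and the difference of 1.02 ± 0.35 did not pass (0.0809). Moxd1 did not pass either (0.299), with females at or near 0.

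**Figure D5:**
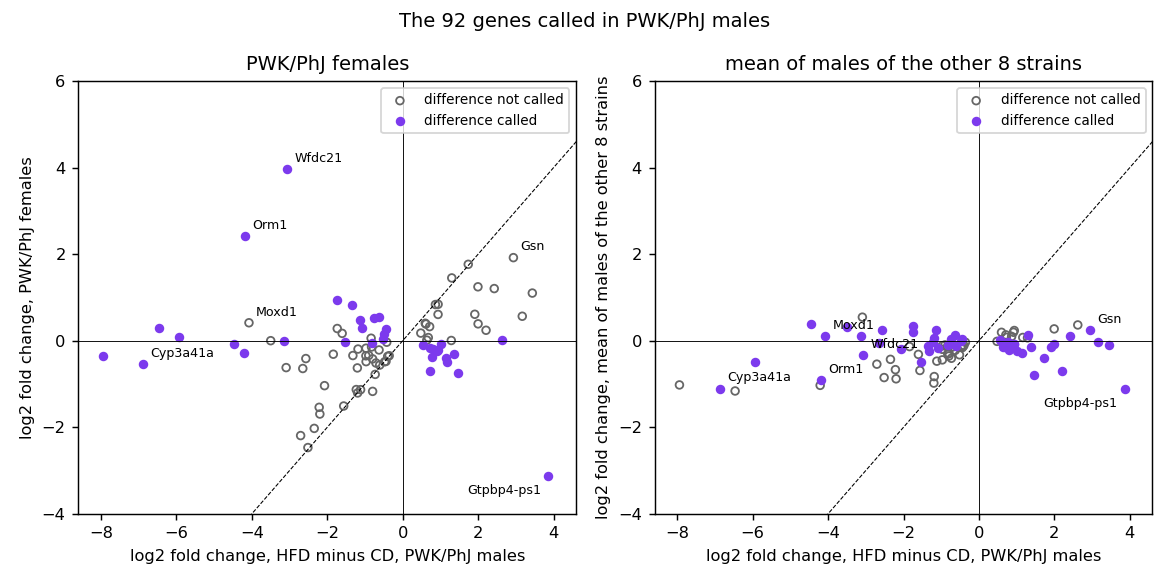
Log2 fold changes (HFD minus CD) of the 92 genes called in PWK/PhJ males against those in PWK/PhJ females (left) and against the mean of the males of the other 8 strains (right), with the line of equal change dashed. Filled points passed the test of the difference, 34 on the left and 49 on the right; Orm1 and Wfdc21 lie above 0 in females and Gsn lies nearer to the dashed line on the left than on the right. The points of Cyp3a41b and Selenok-ps7 on the right rest on counts at or near 0 in the other males.

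Among genes with a mean CPM of at least 1 in PWK/PhJ, the lowest male minus female differences were -9.31 for Ngp, -8.86 for Ltf and -8.41 for Camp, which encode granule proteins of neutrophils, and -7.95 for the immunoglobulin gene Ighg2b (adjusted p of at most 0.000328). In the males these 4 genes were at or below 2.90 CPM in each mouse, and none was called in the diet effect. In part they lay at or near 0, where a fitted difference depends on the prior count. The highest were 4.59 for Gm15441, 4.76 for Gm28857, 6.20 for Gm9973 and 6.99 for Gtpbp4-ps1, whose level in females on HFD was at most 0.0346 CPM, so that its difference depends on the prior count too. The interferon list shows the same contrast: its median was -0.05 in males and 1.83 in females, where 24 of 29 were called higher (9.13% of all genes were). Of the 29, 17 passed the test of the difference, all lower in males (2.85% of all genes). Granulocyte markers had a median of -0.35 in males, with a summed level of 7.91 to 17.1 CPM on HFD and 5.86 to 9.87 CPM on CD, against 82.0 to 261 CPM in females on HFD and 7.28 to 14.3 CPM on CD. All 12 were called higher in females and 7 passed the test of the difference. Of 14 B and plasma cell markers 11 were called higher in females and 9 passed that test, with sums of 326 to 512 CPM in females on HFD and 206 to 252 CPM on CD, against 190 to 283 CPM and 232 to 281 CPM in males. Of 23 Kupffer cell and macrophage markers 14 were called higher in females and 6 passed, with sums of 952 to 1631 CPM and 581 to 689 CPM, against 613 to 779 CPM and 654 to 813 CPM in males. The part of these cells in the differences was not tested. Of the 33 genes of fatty acid oxidation 5 passed with a higher effect in males (1.49% of all genes): Cyp4a14 (3.12), Pdk4 (4.06), Acot1 (2.29), Acot2 (2.64) and Pex11a (1.59). Cyp4a14 fell by 3.65 on the log2 scale in females. The male values of Pdk4 were at 44.5 CPM in HFD 2 and at no more than 10.5 CPM in the other 5 mice, and its male log2 fold change ran from -0.12 to 1.57 without 1 mouse. The urea cycle genes Cps1 (1.63, adjusted p 0.00282), Asl (1.54, 0.00715) and Arg1 (1.36, 0.00250) did so too, as did Cyp17a1 (3.39). Of 21 lipid droplet genes 4 passed, all with a higher effect in males (1.49% of all genes). Among them were Cidec (2.95, 0.0452) and Plin5 (1.85, 0.0282). Cidec changed by -1.61 in males and -4.56 in females, and Plin5 by 0.80 and -1.04. Acot1, Acot2, Pex11a, Asl and Cyp17a1 were named after their values were seen.

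Against the mean diet effect in males of the other 8 strains, 93 of 14330 genes passed (0.649%). PWK/PhJ lay above that mean for 54 (0.377%) and below it for 39 (0.272%), and 1331 had an unadjusted p under 0.05. The count was 32 without HFD 1, 40 without HFD 2, 58 without CD 2 and 61 without CD 1. It was 93 without NZO/HlLtJ, whose HFD group holds 1 male. Of the 92 called genes 49 passed, again on the same 6 libraries. Tested one strain at a time, males gave between 4 (A/J) and 1840 (C57BL/6J) called genes, with PWK/PhJ at 92 between DBA/2J at 157 and WSB/EiJ at 66.

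Gsn exceeded the other males by 2.69 ± 0.28 (SE, adjusted p 1.11e-10): their log2 fold changes ran from -0.04 to 0.74, with a median of 0.09. Chrm2 exceeded them by 2.32 (0.0202), Zfp970 by 2.06 (0.0181) and Ugt1a1 by 1.43 (7.28e-06). Of the falls, Cyp3a41a differed by -5.77 ± 1.06 (0.000813), Cyp3a63-ps by -5.43 ± 1.13 (0.00381), Sult3a1 by -4.84 ± 0.97 (0.00267), Moxd1 by -4.17 ± 0.80 (0.00140) and Orm1 by -3.27 ± 0.62 (0.00123). Cyp3a44 differed by -3.18 ± 0.98 and did not pass (0.140). The difference of Cyp3a41b, -6.92 ± 3.15 (0.459), rests on counts near 0 in many of the other males, and that of Selenok-ps7, at or near 0 counts in all of them, could not be estimated. The other males nonetheless varied in these genes. Their changes in Moxd1 ran from -5.17 to 6.10 and those in Cyp3a41a from -2.76 to 1.94, below 0 in 7 of 8 strains. The falls of Tm7sf2 and Hunk had the same sign in 8 of 8 strains, and their differences did not pass (-0.36, adjusted p 0.781, and -0.88, 0.356). Tm7sf2 ran from -2.05 to -0.18 in the other strains. Hunk, whose call was lost in 2 of 6 fits without 1 mouse (up to 0.137, without CD 1), was named after its values were seen.

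Some genes differed from the other males without a call in PWK/PhJ. Cyp3a11, a major drug-metabolising P450, had a diet effect 2.75 higher than the mean of the other males (adjusted p 6.14e-05), with 5397, 4047 and 3410 CPM on HFD and 3016, 3767 and 3445 CPM on CD. The diets thus overlapped in PWK/PhJ, and most of the difference reflects a mean fall on HFD in the other males. Cyp3a11 was named after its values were seen. Cps1 (1.21, 0.00977), Arg1 (1.10, 0.00267), Sds, a serine dehydratase (1.41, 0.0213), and Ppargc1a (2.64, 0.0249) had a higher effect than in the other males. Among genes with a mean CPM of at least 1 in PWK/PhJ, called there or not, the highest differences were 3.79 for Cdkn1a, an inhibitor of the cell cycle, 3.79 for the integrin Itga2, 4.98 for Gtpbp4-ps1 and 5.24 for Gm48199. Cdkn1a was at 128, 158 and 22.4 CPM on HFD and at 8.11, 16.5 and 22.3 CPM on CD, so that HFD 3 was level with the highest chow mouse. EdgeR did not call it in PWK/PhJ males (0.172) and DESeq2 did (0.0466). Some clock genes set HFD 3 and CD 3 apart from the other mice of their diet, and none was called among the 20 listed. Dbp, named after its values were seen, was at 2.33, 2.51 and 57.2 CPM on HFD and at 25.4, 21.1 and 84.8 CPM on CD. Bhlhe41 was at 0.584, 1.03 and 4.30 CPM on HFD and 2.44, 1.75 and 6.63 CPM on CD, and Per2 at 4.39, 5.54 and 10.8 CPM and 8.29, 9.34 and 15.0 CPM. Arntl had the reverse order, with HFD 3 at 14.5 CPM against 27.9 and 24.6 CPM, and CD 3 at 6.82 CPM against 17.3 and 18.2 CPM. HFD 3 and CD 3 are also the mice that lay nearest to the other diet in Zfp970 and in the Cyp3a genes, respectively. The part of these differences in the results was not tested.

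Markers of the cell types that a piece of liver can hold were read beside these results, and 0 of the 11 lists had a member called in males by edgeR, DESeq2 or limma. Hepatocyte markers summed to 136323 to 148928 CPM on HFD and 115605 to 147515 CPM on CD (14 of 14 measured, median log2 fold change 0.08). Kupffer cell and macrophage markers summed to 613 to 779 CPM and 654 to 813 CPM (23 of 23, -0.08), endothelial markers to 600.0 to 621 CPM and 589 to 629 CPM (17 of 18, -0.03), and stellate cell markers to 631 to 782 CPM and 567 to 782 CPM (12 of 13, 0.07). B and plasma cell markers summed to 190 to 283 CPM and 232 to 281 CPM (14 of 15, -0.62, with 4 lower at an unadjusted p under 0.05). T and NK cell markers summed to 6.20 to 8.00 CPM and 5.42 to 9.62 CPM (7 of 15, -0.20), cholangiocyte markers to 48.7 to 65.5 CPM and 60.7 to 68.0 CPM (7 of 12, -0.14) and erythroid markers to 69.5 to 104 CPM and 47.2 to 73.7 CPM (7 of 10, 0.22). The adipocyte list summed to 955 to 1037 CPM on HFD and 575 to 704 CPM on CD (5 of 11, 0.13), nearly all of it Car3, which liver also expresses. Adipoq, Lep, Retn and Plin1 were not analysed here, and Fabp4 lay between 11.9 and 26.4 CPM. Of 13 pancreas markers Cela1 was the 1 measured, at 25.8, 25.7 and 31.7 CPM on HFD and 13.9, 13.9 and 14.6 CPM on CD (adjusted p 0.0827). The part of these levels in the results was not tested.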

How the data were processed

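Liver mRNA was sequenced in 1 library per mouse. The authors deposited 1 table of whole-number counts per gene. It also holds 3 lines for reads assigned to no gene: not uniquely aligned, ambiguous between genes or in no feature. These lines were left out. The name of the table refers to TMM, but its values are whole numbers with differing library totals, so they were treated as raw counts. STAR 2.73a, FastQC and edgeR 3.24.3 are named per the submitters' processing notes. The genome build, the counter and the use of strand are not given in the sources used here. Gene names for 14327 of 14330 genes, coordinates and overlaps came from GENCODE M21 (GRCm38), and start-site windows from RefSeq. Every column was matched to a sample by its label.

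All libraries were fitted together in edgeR 4.0.16 (R 4.3.3) with TMM factors, a trended dispersion and 1 mean for each of 36 groups, leaving 70 residual degrees of freedom that share 1 estimate of spread. Quasi-likelihood tests were 2-sided, with Benjamini-Hochberg adjustment over 14330 genes and a threshold of 0.05. The 3 contrasts were the diet effect in PWK/PhJ males, its difference from that in females, and its difference from the mean of the other males. They share the 6 male libraries. DESeq2 1.42.0, limma 3.58.1, other scalings and filters, smaller sets of libraries and fits without 1 mouse were alternatives. SE is the absolute log2 fold change divided by the square root of F. Gene counts per library limit precision for low genes, and 3 counts served as the floor. P-values set each change against the spread between mice of the same group, as estimated over all 36 groups.

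Named genes were those with the largest changes or highest levels among called genes without overlap, up to 4 members of each list by smallest p, the panel, and the largest differences of each contrast. Others, including called genes described for their position or spread, were chosen after their values were seen. Values of a few named genes are left out. The members and lists were chosen with earlier results of these data known.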

Additional observations from a re-analysis of the deposited data

Results flagged for a closer look

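These results passed edgeR's test that the diet effect differed between groups of mice. Between the sexes of PWK/PhJ the test passed for 623 genes. Male minus female log2 differences were -9.31 for Ngp, -8.86 for Ltf, -8.41 for Camp and -7.95 for Ighg2b. They were -7.59 for Cyp3a41b, -6.77 for Selenok-ps7, -6.34 for Cyp3a41a, -6.01 for Cyp3a63-ps and -3.93 for Cyp3a44. Orm1 differed by -6.60 and Sult3a1 by -4.37. Differences above 0 were 6.99 for Gtpbp4-ps1, 6.20 for Gm9973, 4.76 for Gm28857, 4.59 for Gm15441, 2.20 for Gm14419 and 1.64 for Igf2bp2. Ngp, Ltf, Camp, Cyp3a41b, Selenok-ps7 and Gtpbp4-ps1 had libraries at or near 0 counts, so the sizes of their differences depend on the prior count.

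Between PWK/PhJ males and the mean of the males of the other 8 strains the test passed for 93 genes. The differences were -5.77 for Cyp3a41a, -5.43 for Cyp3a63-ps, -4.84 for Sult3a1, -4.17 for Moxd1 and -3.27 for Orm1. Above 0 they were 5.24 for Gm48199, 4.98 for Gtpbp4-ps1, 3.79 for Cdkn1a, 3.79 for Itga2, 3.20 for Gm30692, 2.69 for Gsn, 2.32 for Chrm2, 2.25 for Gm14419, 2.06 for Zfp970 and 1.17 for Slc5a1. Both sets of differences rest on the same 6 male libraries.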

How the results depend on the processing

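For the diet effect in PWK/PhJ males the count of 92 called genes became 23 when a minimum log2 fold change of 0.5 was tested, 4 in the 6 male libraries alone and 34 in the 12 PWK/PhJ libraries. Without 1 mouse at a time it ranged from 42 to 93, with 42 without HFD 1, 54 without CD 2 and 59 without CD 3. DESeq2, limma, other scalings, no dispersion trend and a filter on low means gave 62 to 120. For males minus females 623 became 389 with the filter, 152 with the minimum change and 208 to 785 without 1 mouse (208 without the female CD 2, 268 without the male HFD 2, 321 without the female HFD 1 and 407 without the male HFD 1). For PWK/PhJ minus the other males 93 became 21 with the minimum change and 32 to 120 without 1 mouse (32 without HFD 1, 40 without HFD 2, 58 without CD 2 and 61 without CD 1). The cause was not tested. Some of the uncalled genes reported here had a log2 fold change that took either sign without 1 mouse. They included Adgre1 (-0.11 to 0.12), Cd36 (-0.48 to 0.43), Cyp2b10 (-0.71 to 1.38, and 0.48 with limma), Cyp7a1 (-1.76 to 0.25), Fgf21 (-1.28 to 0.12), Mogat1 (-0.10 to 0.93), Pck1 (-0.23 to 0.21), Pdk4 (-0.12 to 1.57), Plin2 (-0.46 to 0.30) and Pparg (-0.59 to 0.0103). No paired analysis was possible because the mice carry no replicate numbers in the labels that could pair them between diets. Genes at or under 3 counts per library had no measurable change at this depth.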
